A study of Mus musculus with 12 samples.

Results

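The 55 genes described here encode the machinery that copies DNA and separates chromosomes, together with the regulators that admit a cell to division. They were taken by gene symbol from a table of 54532 genes, where each symbol occurred once, and all 55 had enough reads to be tested. By known role, 27 act in DNA replication or are switched on with it at the G1 to S transition (replication genes), 23 act in mitosis or prepare for it (mitotic genes), and 5 are regulators of G1. The levels came from RNA sequencing of the immortalised mouse microglial line N9. Microglia are the resident macrophages of the brain. There were 4 groups of 3 libraries. The first group was grown for 18 h in control medium, which is glucose-free DMEM with dialysed serum, 3 mM glucose and 5 mM fructose, and received no lipopolysaccharide (LPS). The second had the same medium and then LPS, the bacterial outer membrane component that Toll-like receptor 4 detects, at 1 µg/ml for 6 h. The third and the fourth also received LPS, in control medium with 15 mM glucose or with 15 mM fructose. Whether 15 mM is the final or the added amount is not stated. Neither raised sugar was given without LPS in the labelled samples, so the sugars were compared only among LPS-treated cells, and an effect of added solute cannot be told apart from that of the sugar. The labels do not state whether a group's 3 libraries are 3 cultures, and p-values therefore rest on library-to-library spread that could be purely technical. An immortalised line divides continuously in culture, whereas most microglia of the healthy adult brain do not.

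A cell that commits to division passes the G1 restriction point when cyclin D with CDK4, and then cyclin E with CDK2, phosphorylate the retinoblastoma protein and release E2F transcription factors, which switch on the replication genes. The origin recognition complex, CDC6 and CDT1 load the MCM2 to MCM7 ring, the replicative helicase, on DNA, and CDC45, GINS and MCM10 turn it into a moving fork. Mitotic genes are switched on later, in G2, by a complex of MuvB, B-MYB and FOXM1. CDKN1A, also called p21, inhibits cyclin-dependent kinases and is a classical target of p53. Macrophages exposed to LPS are known to leave the cycle, and bulk RNA cannot tell fewer dividing cells from less of these mRNAs in each dividing cell.

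The promoters of the replication and mitotic genes are shown first, because the results are set out by these classes, whose promoters differ in the letters they hold. Promoter sequence from RefSeq (GRCm38.p6; 250 bases before to 50 after the gene's first listed start) was matched for 43 of the 55 genes, 22 replication, 18 mitotic and 3 G1 regulator genes. On both strands, 3 kinds of motif were searched, and no motif of one kind lies inside a motif of another kind. E2F-type sites were TTTGGCGC, TTTCCCGC, TTTGCCGC or TTTCGCGC. The cell cycle genes homology region (CHR), which MuvB binds, was TTTGAA or TTCGAA, and the box bound by NF-Y was CCAAT. E2F-type sites stood in 10 of 22 replication promoters, 1 of 18 mitotic promoters and 2.32% of all 27025 promoters of the same length. A CHR stood in 14 of 18 mitotic promoters, 4 of 22 replication promoters and 19.4% of all. CCAAT stood in 16 of 18, 16 of 22 and 37.9% of all. All 14 mitotic promoters with a CHR also held CCAAT, a pair found in 7.70% of all promoters. Matches describe the letters in these windows and are not measured binding. The lines below give the 200 bases before the start of 6 genes, read 5′ to 3′ along the gene, with the matches in capitals. Mcm6 and Pola1 stand for replication genes with E2F-type sites, Mcm10, which moved unlike most of its class, for one without, and Kif11, Top2a and Mki67 for mitotic genes with both a CHR and CCAAT.
Mcm6: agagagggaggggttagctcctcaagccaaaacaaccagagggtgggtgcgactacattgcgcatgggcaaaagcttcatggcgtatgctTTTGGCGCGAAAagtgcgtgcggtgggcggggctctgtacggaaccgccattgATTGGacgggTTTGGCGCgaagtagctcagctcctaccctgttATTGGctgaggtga
Pola1: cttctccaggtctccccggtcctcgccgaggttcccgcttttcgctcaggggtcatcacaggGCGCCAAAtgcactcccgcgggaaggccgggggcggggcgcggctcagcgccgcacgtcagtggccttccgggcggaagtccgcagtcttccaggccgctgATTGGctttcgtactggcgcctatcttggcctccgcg
Mcm10: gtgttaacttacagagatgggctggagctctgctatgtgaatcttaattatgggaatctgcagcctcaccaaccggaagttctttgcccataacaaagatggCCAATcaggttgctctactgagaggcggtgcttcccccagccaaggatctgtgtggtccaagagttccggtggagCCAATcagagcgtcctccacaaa
Kif11: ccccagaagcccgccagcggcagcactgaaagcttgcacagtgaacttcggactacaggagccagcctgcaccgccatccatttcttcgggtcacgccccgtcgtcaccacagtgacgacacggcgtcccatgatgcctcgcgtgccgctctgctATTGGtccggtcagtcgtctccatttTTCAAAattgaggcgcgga
Top2a: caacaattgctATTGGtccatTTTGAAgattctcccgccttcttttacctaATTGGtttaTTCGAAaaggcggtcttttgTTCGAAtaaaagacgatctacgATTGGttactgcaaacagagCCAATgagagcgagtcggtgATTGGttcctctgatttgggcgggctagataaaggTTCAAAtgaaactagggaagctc
Mki67: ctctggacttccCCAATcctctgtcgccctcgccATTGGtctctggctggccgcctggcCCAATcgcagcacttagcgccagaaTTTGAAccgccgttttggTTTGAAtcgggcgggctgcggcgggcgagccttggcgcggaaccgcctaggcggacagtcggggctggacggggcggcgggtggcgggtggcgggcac
These lie on GRCm38.p6 at chr1:128359706-128359905 (minus strand), chrX:93632156-93632355 (minus), chr2:5012792-5012991 (minus), chr19:37376182-37376381 (plus), chr11:99024190-99024389 (minus) and chr7:135716380-135716579 (minus). The window of Tk1 held none of these letters.

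Libraries held 15453776 to 17956772 counts, and 12766 genes were tested. Of 14 microglia and macrophage markers, 12 averaged 1 CPM (counts scaled to library size) or more over the libraries, the list summing to 2346 to 2632 CPM per library, among them Cd68, Csf1r and Spi1. Aif1 and P2ry12, which mark microglia in the brain, were nearly absent at 2 to 9 and 1 to 6 counts per library. Markers of neurons, astrocytes, oligodendrocytes, endothelium, fibroblasts, epithelium and lymphocytes summed to at most 53.3 CPM per list and library. Libraries of a group were uneven for the fibroblast list, from 0.391 to 8.48 CPM in control medium and 0.789 to 14.8 with high fructose and LPS. The epithelial list ran from 0 to 17.2 CPM with high glucose and LPS. The neuron list, carried by Map2, was lower with LPS (22.4 to 23.8 CPM without it, 16.9 to 18.2 with it), as were the astrocyte list (27.6 to 29.6 against 21.1 to 24.7) and the oligodendrocyte list (45.0 to 53.3 against 41.7 to 42.5), while the endothelial list was higher (0.335 to 0.904 against 1.61 to 2.27). Among the LPS groups the astrocyte list was lower with high glucose (18.9 to 20.5) than in control medium or with high fructose (21.4 to 24.9). The oligodendrocyte list was higher with high glucose (43.6 to 45.6) and high fructose (43.1 to 49.0) than in control medium with LPS. The part of these list differences in the results below was not tested.

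The share of all counts that fell on the 55 genes gives the broad pattern. It was 0.948 to 0.976% in control medium, 0.702 to 0.709% with LPS, 0.719 to 0.732% with high glucose and LPS, and 0.645 to 0.659% with high fructose and LPS. The ranges of the 4 groups did not overlap. Per kilobase, the highest levels in control medium were those of Pcna (154 ± 7.26 FPKM, SD, n = 3), Rrm2 (124 ± 0.832), Mcm6 (116 ± 2.97) and Cdc20 (107 ± 3.18). FPKM are fragments per kilobase of gene, scaled to library size. The lowest were Ccnd2 (0.156 ± 0.0235 FPKM) and Orc1 (4.62 ± 0.305). The heatmap of the 55 genes shows the pattern gene by gene.

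**Figure D1:**
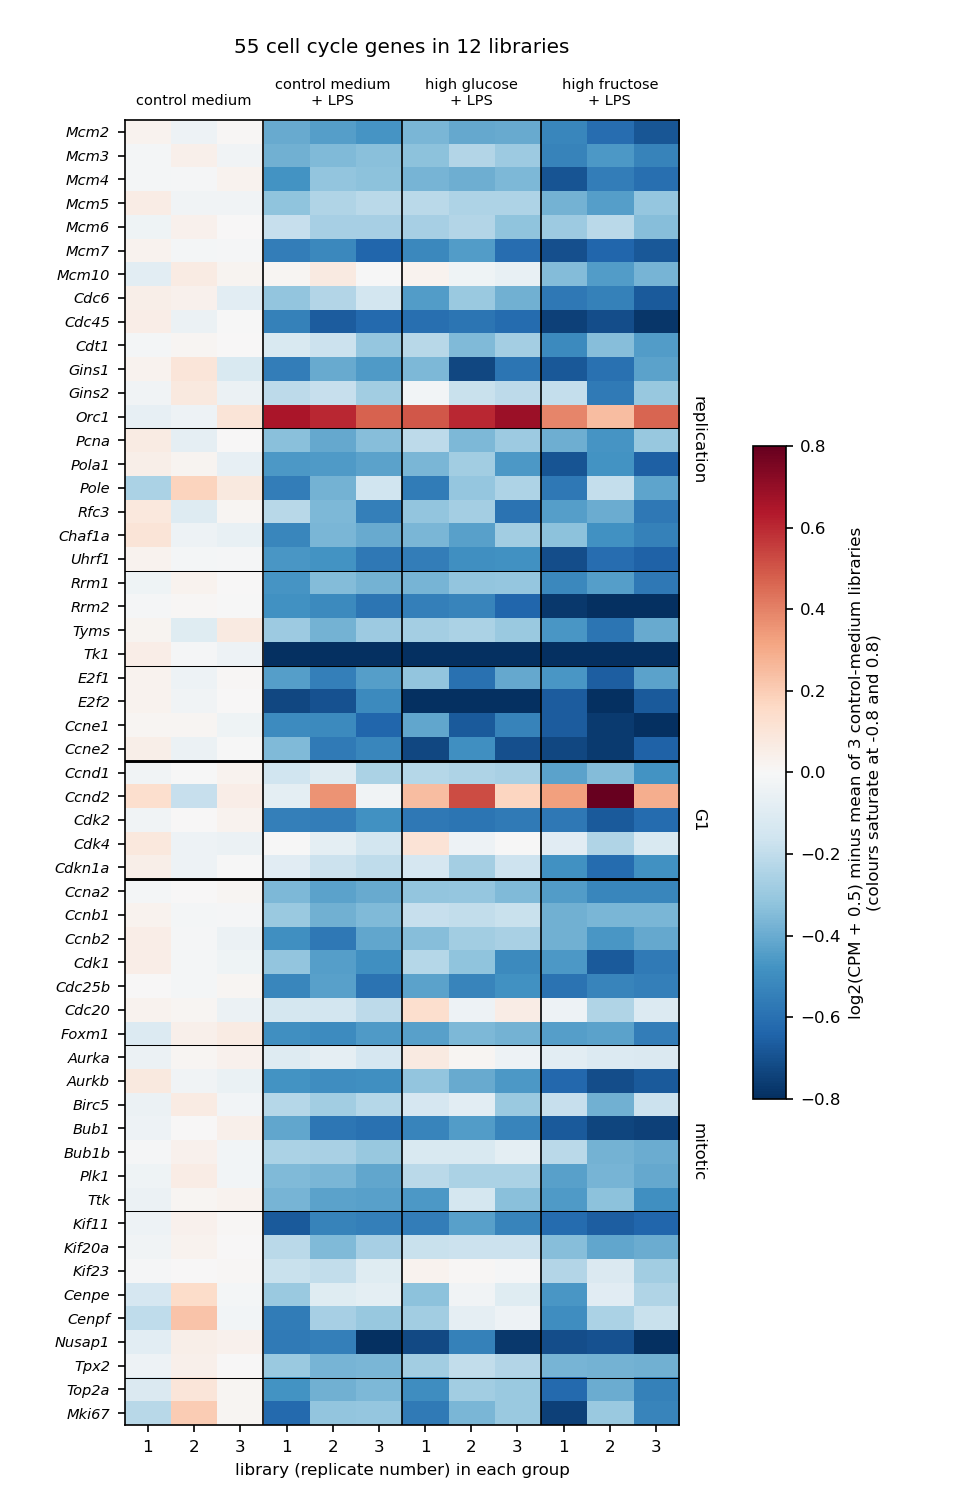
Each row is 1 of the 55 genes and each column 1 of the 12 libraries, and colour is log2(CPM + 0.5) minus the mean of the 3 control-medium libraries, with blue lower and red higher. Most rows turn blue in the 9 LPS libraries and darken for many replication genes with high fructose, while Orc1 is red in all LPS libraries and Mcm10 turns blue with high fructose.

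LPS in control medium lowered genes of both classes by about the same amount. Of the 27 replication genes 24 fell and 1 rose, of the 23 mitotic genes 21 fell, and of the 5 G1 regulators 3 fell. Among all genes tested 28.8% were called, 13.6% lower and 15.2% higher, a call being an adjusted p below 0.05 (edgeR quasi-likelihood test, Benjamini-Hochberg over all genes). The median log2 fold change was −0.40 for the replication genes and −0.40 for the mitotic genes, against −0.00 over all genes tested. In 24 replication, 22 mitotic and 3 G1 regulator genes all 3 LPS libraries were below all 3 others, against 21.8% of all genes. In 1 gene they were above, against 22.6%. The library scaling factors were 1.05 in control medium and 0.985 to 0.989 with LPS, and their part was not tested. With library totals alone both class medians were −0.49 and the median of all genes −0.09, and the calls over all genes changed from 1736 lower and 1941 higher to 2951 and 1412. The log2 fold changes of all 55 genes ran from −1.03 to 0.59.

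Nucleotide supply held the largest fall. Tk1 (ENSMUSG00000025574, chromosome 11 at 117815526 to 117826092 of mm10), the thymidine kinase that recycles thymidine in S phase, measured 106, 101 and 99.4 CPM in control medium and 49.4, 47.4 and 53.6 with LPS. All 3 LPS libraries were far below the control-medium ones, and Tk1 fell by 1.03 ± 0.06 (log2, SE), a change of −50.9% (adjusted p = 6.8e-10). Up to 17.3% of a Tk1 transcript matches the transcript of another gene. Rrm2 (ENSMUSG00000020649, chromosome 12 at 24708241 to 24714146), the regulated subunit of ribonucleotide reductase, measured 344, 347 and 345 CPM and then 246, 243 and 229.7. The groups did not overlap, and Rrm2 fell by 0.53 ± 0.05. Its partner Rrm1 fell by 0.40 ± 0.05 and the thymidylate synthase gene Tyms by 0.32 ± 0.07, so that all 4 genes of this role were lower.

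Helicase genes fell unevenly. Of 13 genes that load or start the replicative helicase, 10 fell. Mcm7 measured 201, 195 and 196 CPM in control medium and 134, 138 and 127 with LPS, a change of −0.57 ± 0.05 (adjusted p = 8.79e-08). Cdc45, whose product joins the helicase as it starts, measured 79.6, 74.3 and 76.7 and 52.6, 48.2 and 49.7 CPM, a change of −0.61 ± 0.05 (adjusted p = 8.59e-08). In both genes the groups stood well apart. The other subunits of the ring changed less, Mcm2 by −0.44 ± 0.05 (212, 202 and 209.6 to 157, 153 and 149.6 CPM), Mcm3 by −0.36 ± 0.05, Mcm4 by −0.37 ± 0.05, Mcm5 by −0.26 ± 0.05 and Mcm6 by −0.24 ± 0.05. Although the products form 1 ring, the percent change ranged from −15.3% for Mcm6 to −32.6% for Mcm7. Gins1 fell by 0.48 ± 0.10, and the loading factors Cdc6 and Cdt1 fell by 0.23 ± 0.07 and 0.20 ± 0.06. Cdc6 was not called without control-medium replicate 2 or LPS replicate 1 (adjusted p up to 0.0747), nor Cdt1 without LPS replicate 3 (0.0994).

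The exceptions among the replication genes were Orc1, Mcm10 and Gins2. Orc1 (ENSMUSG00000028587, chromosome 4 at 108579423 to 108614833), the largest subunit of the origin recognition complex, was chosen for description after its values were seen. It measured 15.4, 15.6 and 17.4 CPM in control medium and 25.7, 24.8 and 22.5 with LPS, with all 3 LPS libraries above all 3 others. It rose by 0.59 ± 0.09 (adjusted p = 7.64e-05), the only rise called among the 55, and Gm12743, on the opposite strand, covers 10.8% of its exonic bases. Mcm10, which stabilises the helicase at the fork, measured 57.4, 63.8 and 61.9 and 61.8, 64 and 60.9 CPM, overlapping values with a change of 0.03 ± 0.06 (adjusted p = 0.777). Gins2 had a change of −0.23 ± 0.09 (adjusted p = 0.0666), and 67.3% of its exonic bases overlap Gse1 on the other strand.

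Polymerase, chromatin and G1 to S genes all fell. Pcna, the sliding clamp, measured 388, 353 and 371 CPM and 294, 279 and 293 with LPS, a change of −0.36 ± 0.05, and 51.4% of a Pcna transcript matches a pseudogene, so its counts are uncertain. Uhrf1, which carries DNA methylation over to the new strand, measured 245, 237 and 239 and 174, 172 and 161 CPM, a change of −0.51 ± 0.05 (adjusted p = 1.5e-07), and 44.3% of a Uhrf1 transcript matches the predicted gene Gm5648. Neither gene's groups overlapped. The other genes of this role were Pola1 (−0.45), Chaf1a (−0.43, with 52.5% of exonic bases overlapping Ubxn6 on the other strand), Rfc3 (−0.38) and Pole (−0.37), and all 6 were called lower. Pole was not called without control-medium replicate 2 or 3 or LPS replicate 1 or 2 (adjusted p up to 0.144), nor Rfc3 without LPS replicate 3 (0.0526). E2f2, an activator of replication genes, measured 64.1, 61.8 and 62.9 CPM in control medium and 37.9, 38.6 and 44 with LPS, and fell by 0.65 ± 0.09, a change of −36.2%. Ccne1, for the cyclin that drives CDK2 at the start of S phase, measured 109, 109 and 105 and 75.6, 75.4 and 69.2 CPM, a fall by 0.55 ± 0.06. Ccne2 measured 73.9, 69.3 and 71.2 and 55.9, 48 and 49.6 CPM, a fall by 0.48 ± 0.07, and an opposite-strand gene covers 17.4% of its exonic bases. In these 3 genes every LPS library was below every control-medium library, and E2f1 fell by 0.48 ± 0.07.

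Among the G1 regulators Cdk2 fell most. It measured 83.1, 85.1 and 86.4 CPM in control medium and 57.9, 57.8 and 60.4 with LPS, a change of −0.53 ± 0.05 (adjusted p = 1.79e-07), with little spread inside either group. Ccnd1, for the cyclin that carries growth signals into G1, measured 257, 261 and 267 and 234, 244 and 219 CPM, a change of −0.17 ± 0.05 that was not called without control-medium replicate 3 or LPS replicate 3 (adjusted p up to 0.0897). Cdkn1a (ENSMUSG00000023067, chromosome 17 at 29090976 to 29100727) measured 205, 194 and 198 and 187, 177 and 173 CPM. Its change of −0.15 ± 0.05 (adjusted p = 0.0367) was not called without control-medium replicate 1 or 3 or LPS replicate 2 or 3 (adjusted p up to 0.151). Cdk4 (−0.07 ± 0.06, adjusted p = 0.38) was not called, and an opposite-strand gene covers 19.7% of its exonic bases. Ccnd2 was barely expressed at 1.66, 1.23 and 1.54 CPM and 1.37, 2.03 and 1.43 with LPS, and was not called in any comparison.

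Mitotic genes fell in each role. The 7 genes Ccna2, Ccnb1, Ccnb2, Cdk1, Cdc25b, Cdc20 and Foxm1 were all lower. So were 6 of 7 kinase and checkpoint genes and 6 of 7 spindle and kinetochore genes. Kif11, the motor that pushes spindle poles apart, measured 200.0, 211 and 207 CPM in control medium and 129, 142 and 141 with LPS, a change of −0.59 ± 0.05 (adjusted p = 6.06e-08). Nusap1, a spindle microtubule binder, measured 57.4, 62.9 and 62.3 and 40.9, 41.4 and 34.8 CPM, a change of −0.64 ± 0.08. Both stood clear of their control-medium values. Cdc25b, the phosphatase that switches CDK1 on, measured 145, 143 and 146 and 101, 107 and 95.9 CPM, a change of −0.52 ± 0.05 (adjusted p = 2.5e-07). Bub1, a spindle checkpoint kinase, measured 128, 132 and 135 and 98.5, 88.1 and 86.8 CPM, a change of −0.53 ± 0.05. Aurkb, the kinase of the chromosomal passenger complex, measured 109, 101 and 99 and 73.8, 72.6 and 73 CPM, a change of −0.49 ± 0.05. The LPS values of Aurkb were close together, and the groups of all 3 genes did not overlap.

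Cyclins of G2 and mitosis and the proliferation markers fell too. Ccna2, whose cyclin acts in S phase and G2, measured 260.5, 264 and 266 CPM and 205, 195 and 199.6 with LPS (−0.40 ± 0.04), and an opposite-strand gene covers 12.5% of its exonic bases. Ccnb1 (ENSMUSG00000041431, chromosome 13 at 100778650 to 100786570), the cyclin that takes CDK1 into mitosis, measured 265, 258 and 259 and 212, 199.8 and 204 CPM (−0.34 ± 0.04, adjusted p = 4.22e-06), and 51.9% of a Ccnb1 transcript matches the predicted gene Gm12856, so its counts are uncertain. Neither cyclin's groups overlapped. Top2a, the topoisomerase that untangles sister DNA, measured 431, 499.6 and 471 and 335, 358 and 364 CPM (−0.41 ± 0.07). Mki67, the source of the Ki-67 proliferation antigen, measured 459, 617 and 541 and 348, 429 and 431 CPM (−0.42 ± 0.11, adjusted p = 0.009). Mki67 libraries varied widely within a group, and the change was not called without control-medium replicate 2 or LPS replicate 1 (adjusted p up to 0.0602). Replicate 1 was the lowest library of every group for Mki67, Top2a, Cenpe, Cenpf and Pole, 5 of the 55 against 5.28% of all genes, and the highest of every group for Mcm2, Cdk4, Cdkn1a, Cdk1, Cdc20 and Aurkb, 6 of the 55 against 3.34%. The share of counts on mitochondrial coding genes was also lowest in replicate 1 of every group (0.445 to 0.576%, against 0.595 to 0.740% in the others), and its part was not tested. Aurka (−0.10 ± 0.05, adjusted p = 0.108) and Cenpe (−0.16 ± 0.10, adjusted p = 0.238) were the mitotic genes not called. Among those called, Cdc20 (−0.17) and Kif23 (−0.16) were the smallest changes, and neither was called in every fit that left out 1 library. Cdc20 was called only without control-medium replicate 3 (adjusted p otherwise up to 0.147), and Kif23 was lost without control-medium replicate 2 or 3 or LPS replicate 1 or 2 (up to 0.11). Cenpf was lost without control-medium replicate 2 or LPS replicate 1 (up to 0.0715).

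**Figure D2:**
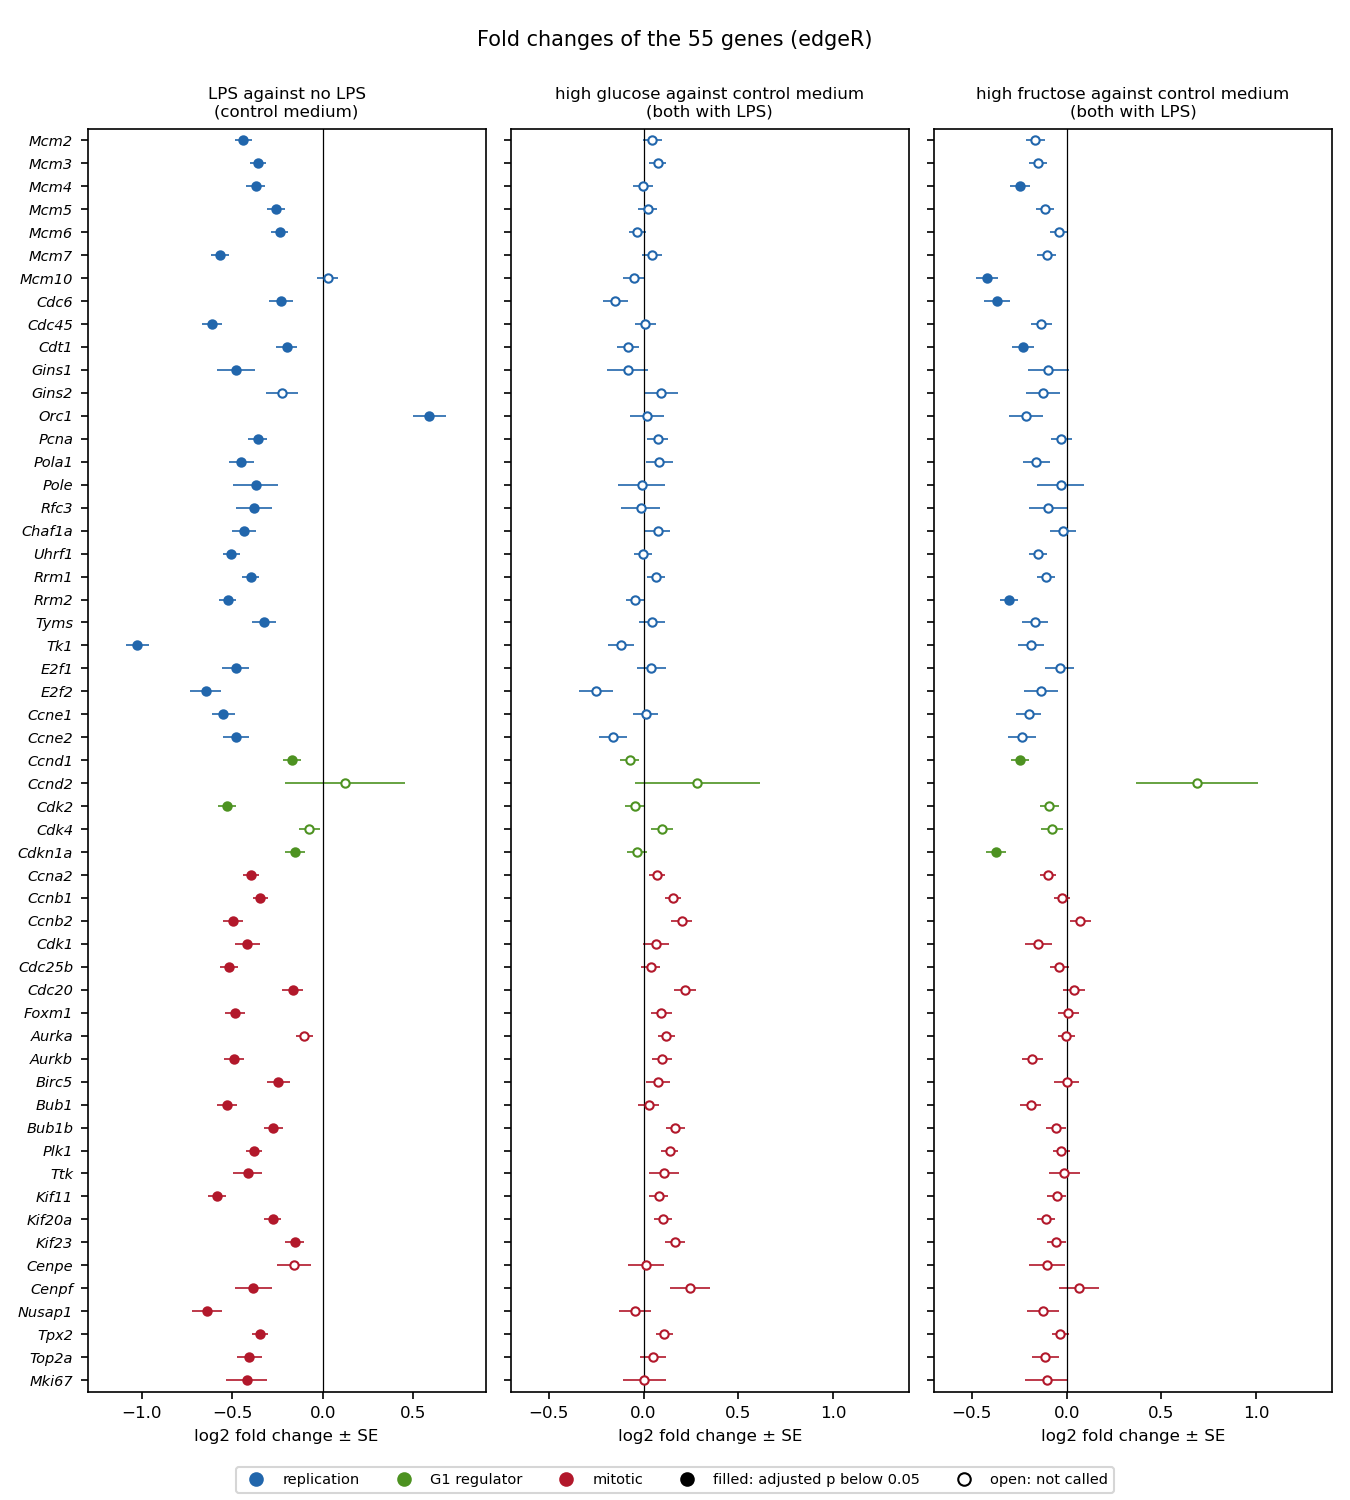
Log2 fold change with its standard error (bar) for each of the 55 genes, with LPS in control medium on the left, high glucose in the middle and high fructose on the right, both sugars against control medium with LPS; filled points are called. Nearly all points in the left panel are filled and below 0, the middle panel has no filled point, and the right panel has 7, none of them mitotic.

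High glucose under LPS left the 55 genes without a call in the edgeR model of all 12 libraries. Over all genes 1.56% were called, 0.971% lower and 0.587% higher. An unadjusted p below 0.05 was reached by 13 of the 55, against 1780 of 12766 of all genes. These were 10 of 23 mitotic and 3 of 27 replication genes. Other fits called up to 3 mitotic genes, all higher. DESeq2 called Ccnb1 and Cdc20, edgeR with no filter Cdc20 and Cenpf, and edgeR with a replicate block all 3 of these. Without high-glucose replicate 2, edgeR called Cdc20. Over all genes tested, DESeq2, no filter and the replicate block called 129, 192 and 164 higher, against 75 in the main model. The mitotic genes lay slightly above their level in control medium with LPS, with a median log2 fold change of 0.10 and 22 of 23 fitted above 0, against a median of 0.00 and 6500 of 12766 over all genes tested. In 12 of 23 mitotic genes all 3 high-glucose libraries exceeded all 3 libraries of control medium with LPS. Of all genes 9.4% did so, while 9.76% were separated downwards. Among the replication genes the median was 0.01, with 14 of 27 fitted above 0 and 1 of 27 so separated upwards.

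The members nearest to a call were mitotic. Cdc20, the activator of the anaphase-promoting complex, measured 182, 182 and 174 CPM in control medium with LPS and 221, 196 and 209 with high glucose, a change of 0.22 ± 0.06 (adjusted p = 0.0717). Ccnb1 measured 212, 199.8 and 204 and 229, 227 and 229.7 CPM, a change of 0.16 ± 0.04 (adjusted p = 0.0778). Ccnb2 had a change of 0.20 ± 0.06 (adjusted p = 0.0918). For all 3 the high-glucose libraries were above those of control medium with LPS, yet the differences did not pass over all genes. E2f2 had the lowest value of the 55, −0.25 ± 0.09 (adjusted p = 0.21), at 31.2, 36 and 34 CPM.

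High fructose under LPS lowered 7 of the 55 genes and raised none, where 4.91% of all genes were called, 2.55% lower and 2.37% higher. This comparison and that of high glucose share their 3 control-medium libraries with LPS. The 7 were the replication genes Mcm4, Mcm10, Cdc6, Cdt1 and Rrm2 and the G1 regulators Ccnd1 and Cdkn1a, and no mitotic gene was called. DESeq2 called 1 of 23 mitotic and 8 of 27 replication genes lower, and edgeR with a replicate block 2 and 8. Over all genes tested these fits called 361 and 409 lower, against 325 in the main model. The replication median was −0.15, with 27 of 27 fitted below 0, and the mitotic median was −0.05, with 19 of 23 below 0. The median over all genes was −0.00. In 16 of 27 replication genes all 3 high-fructose libraries were below all 3 of control medium with LPS. This held for 4 of 23 mitotic genes and 10% of all genes. None of the 55 was separated upwards, against 10.4% of all genes. That replication genes had calls and mitotic genes had none was not tested as a difference. Counts of ribosomal RNA took 0.389 to 0.484% of the high-fructose libraries and 0.539 to 0.657% of the control-medium libraries with LPS, and the part of this gap in the result was not tested.

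Mcm10 had the lowest fold change. It measured 61.8, 64 and 60.9 CPM in control medium with LPS and 47.9, 44.5 and 47 with high fructose, a fall by 0.42 ± 0.06, a change of −25.3% (adjusted p = 0.000182). LPS alone had not been called for it, and its high-fructose libraries were also below the untreated ones (57.4, 63.8 and 61.9 CPM). Cdc6 measured 45.6, 48.4 and 51.4 and 38.1, 39 and 35.5 CPM, a fall by 0.37 ± 0.07 (adjusted p = 0.00292). Both genes had groups that did not overlap, as had the next 3. Rrm2 measured 246, 243 and 229.7 and 202, 194 and 187 CPM, a fall by 0.30 ± 0.05 (adjusted p = 0.000566). Mcm4 measured 122, 136 and 135 and 105, 115 and 111 CPM, a fall by 0.25 ± 0.05 (adjusted p = 0.00844) that was not called without LPS replicate 2 (adjusted p = 0.0582). Cdt1 measured 177, 171 and 155 and 135, 152 and 141 CPM, a fall by 0.23 ± 0.06 (adjusted p = 0.0241). Its call was lost without LPS replicate 1 or 2 or high-fructose replicate 1 or 3 (adjusted p up to 0.138).

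An activator and an inhibitor of the G1 kinases fell side by side. Cdkn1a measured 187, 177 and 173 CPM in control medium with LPS and 142, 130.0 and 142 with high fructose, a fall by 0.37 ± 0.05, a change of −22.9% (adjusted p = 0.000236). Ccnd1 measured 234, 244 and 219 and 194, 205 and 188 CPM, a fall by 0.25 ± 0.05 (adjusted p = 0.00504), and an opposite-strand gene covers 23.4% of its exonic bases. Every high-fructose library was below every control-medium one in both genes. Ccnd2 reached 1.97, 3.91 and 1.91 CPM, with high-fructose replicate 2 above the rest, and its change of 0.69 ± 0.32 was not called (adjusted p = 0.309).

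Other replication genes stayed short of a call. Mcm2 measured 157, 153 and 149.6 CPM in control medium with LPS and 144, 136 and 129 with high fructose (−0.17 ± 0.05, adjusted p = 0.0664), and Mcm3 207, 211 and 214 and 186, 196 and 186 (−0.15 ± 0.05, adjusted p = 0.0692). Ccne2 was at 42.9, 41.9 and 45.5 CPM (−0.24 ± 0.07, adjusted p = 0.0886). Groups did not overlap in these 3 genes. Of the mitotic genes, Bub1 (−0.19 ± 0.06, adjusted p = 0.0619) and Aurkb (−0.18 ± 0.05, adjusted p = 0.0699) came nearest. Tk1, the gene that fell most with LPS, measured 44.4, 42 and 45.6 CPM (−0.19 ± 0.07, adjusted p = 0.143), and Orc1 21.3, 19.2 and 22.4 CPM (−0.21 ± 0.09, adjusted p = 0.255).

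**Figure D3:**
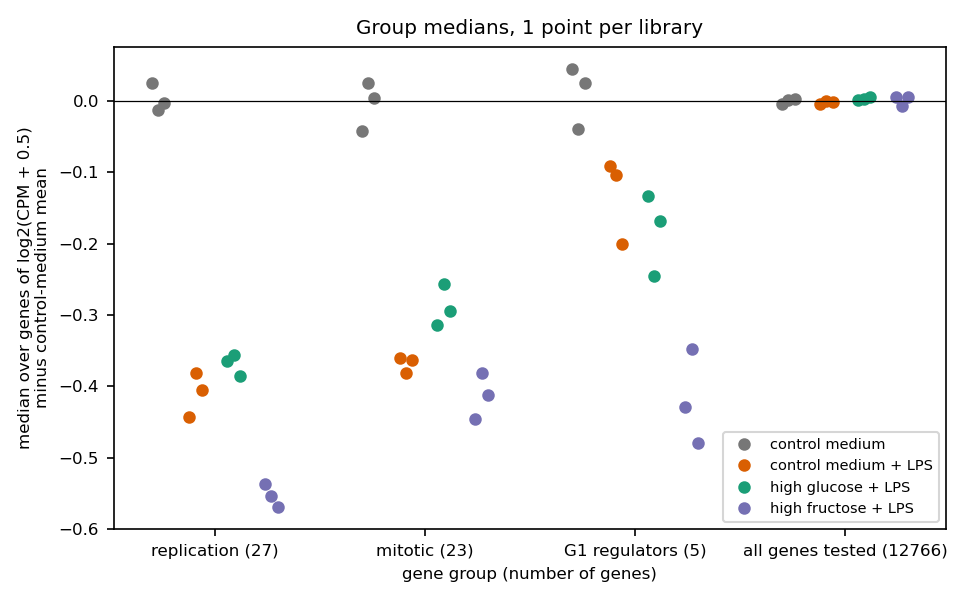
Each point is 1 library and gives the median over the genes named on the horizontal axis of log2(CPM + 0.5) minus the control-medium mean, coloured by group. The replication medians are −0.38 to −0.44 with LPS, −0.36 to −0.39 with high glucose and −0.54 to −0.57 with high fructose, the mitotic medians −0.36 to −0.38, −0.26 to −0.31 and −0.38 to −0.45, and the medians of all genes tested lie near 0.

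In the direct comparison of the sugars under LPS, genes of both classes were lower with high fructose than with high glucose. With high fructose against high glucose 13 of the 55 genes were lower and none higher, where 3.72% of all genes were called, 1.88% lower and 1.84% higher. In 30 of the 55 all 3 high-fructose libraries were below all 3 high-glucose ones, against 8.64% of all genes. In none were they above, against 9.29%. The 13 genes called were 5 replication genes (Mcm2, Mcm3, Mcm4, Mcm10 and Rrm2), 7 mitotic genes (Ccna2, Ccnb1, Aurkb, Bub1, Bub1b, Kif20a and Kif23) and Cdkn1a. The medians were −0.15 for replication and −0.16 for mitotic genes, and 26 of 27 and 23 of 23 were fitted below 0. This comparison shares its libraries with the sugar comparisons above, so it is not separate evidence. Without high-fructose replicate 3, 6 of the 55 were called, and 4 with only the 6 libraries compared in the fit.

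Values of the called genes show both sides. Aurkb measured 82.4, 77.5 and 74.6 CPM with high glucose and 66.2, 62.8 and 64.3 with high fructose, a difference of −0.28 ± 0.05 (adjusted p = 0.00622). Ccnb1 measured 229, 227 and 229.7 and 199.6, 202 and 202 CPM, a difference of −0.18 ± 0.04 (adjusted p = 0.0185), and its high-fructose values overlapped those of control medium with LPS. Ccna2 measured 212, 213 and 206 and 193, 184 and 184 CPM, a difference of −0.17 ± 0.04 (adjusted p = 0.0358). The groups did not overlap in any of the 3. Rrm2 measured 236, 239 and 222 and 202, 194 and 187 CPM (−0.26 ± 0.05, adjusted p = 0.00381), Mcm10 62.1, 59.7 and 58.4 and 47.9, 44.5 and 47 (−0.37 ± 0.06, adjusted p = 0.00113) and Cdkn1a 182, 165 and 177 and 142, 130.0 and 142 (−0.34 ± 0.05, adjusted p = 0.00107). For Rrm2, Mcm10 and Cdkn1a the high-glucose values overlapped those of control medium with LPS. Mcm3 measured 215, 229.6 and 221 and 186, 196 and 186 CPM (−0.23 ± 0.05), Mcm4 131, 129 and 132 and 105, 115 and 111 (−0.24 ± 0.05) and Mcm2 161, 157 and 157 and 144, 136 and 129 (−0.21 ± 0.05). Bub1, Bub1b, Kif20a and Kif23 differed by −0.22, −0.22, −0.21 and −0.22. Of Kif20a, 29.3% of the exonic bases overlap Cdc23 on the other strand.

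Several of these calls were lost when 1 library was left out. Bub1 was called in 0 of 6 fits that left out a library (adjusted p up to 0.128) and Ccna2 in 1, lost without any library but high-fructose replicate 1 (up to 0.124). Kif23 was called in 2 of 6, lost without high-glucose replicate 1 or 2 or high-fructose replicate 1 or 3 (up to 0.102). Mcm2 was lost without high-glucose replicate 1 or high-fructose replicate 2 or 3 (up to 0.102), Bub1b and Kif20a without high-glucose replicate 3 or high-fructose replicate 2 or 3 (up to 0.0974 and 0.0653). Ccnb1 was lost without high-glucose replicate 3 or high-fructose replicate 1 or 3 (up to 0.0606), and Mcm4 without high-fructose replicate 1 (0.0639). Mcm3, Mcm10, Rrm2, Aurkb and Cdkn1a were called in all 6.

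**Figure D4:**
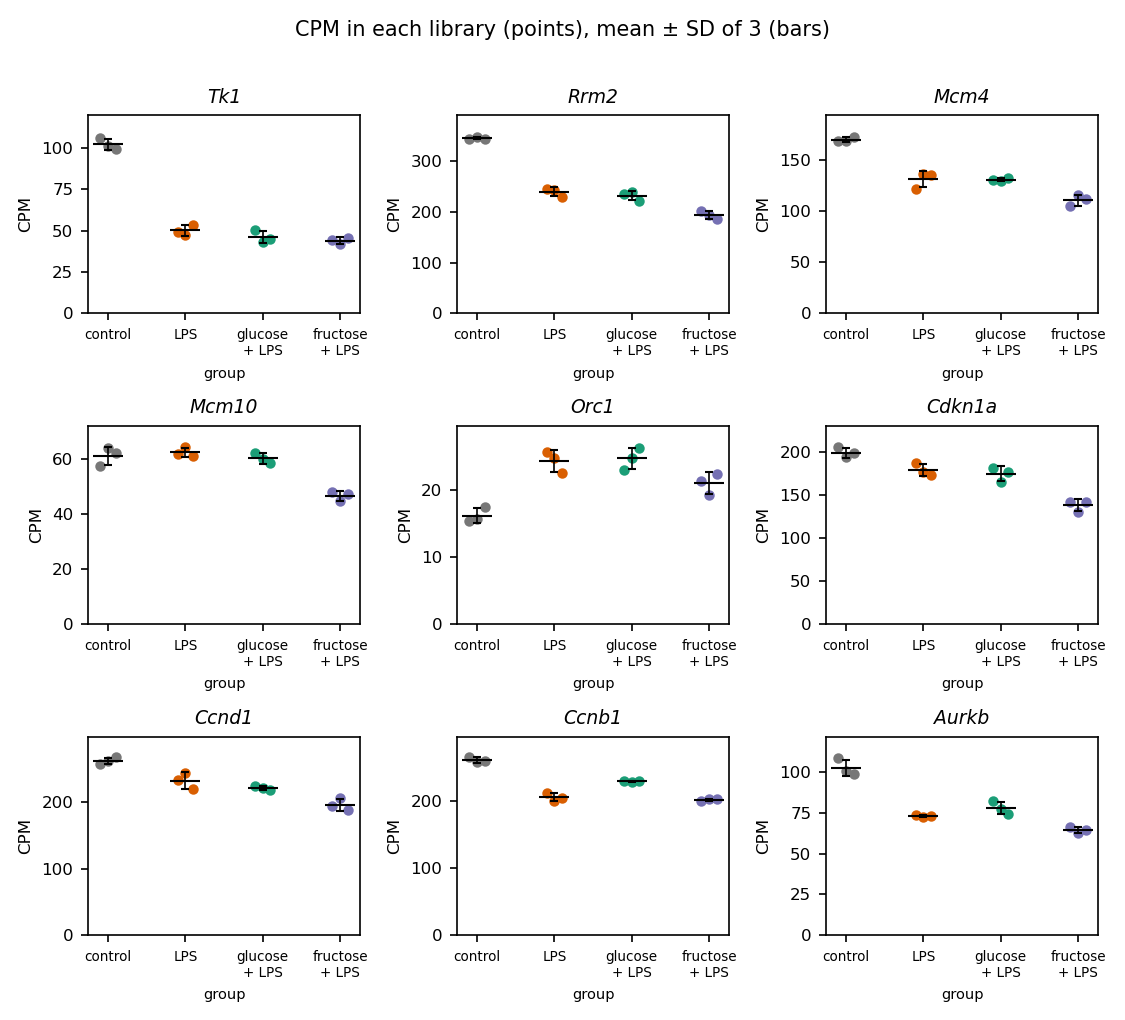
CPM of 9 of the genes in each library (points) with the mean and SD of 3 libraries (black), each vertical axis starting at 0. Tk1 falls with LPS and stays low with either sugar, Mcm10 and Cdkn1a are lowest with high fructose, Orc1 rises with LPS, and Ccnb1 lies higher with high glucose than in the other LPS groups.

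Further genes of the same pathways were also mostly lower with LPS. Their lists were set by known function but with earlier results of these data known, so they are not separate evidence. Of 42 other replication genes 31 were lower with LPS and none higher (median −0.34), and of 54 other mitotic genes 49 were lower and none higher (median −0.40), against 13.6% lower and 15.2% higher among all genes. Clspn, a mediator of the replication checkpoint, fell by 0.73 ± 0.06, Gmnn, the inhibitor of CDT1, by 0.69 ± 0.06, the kinetochore gene Nuf2 by 0.74 ± 0.07 and the condensin gene Ncaph by 0.66 ± 0.06. Of 25 tested regulators of G1 and E2F 12 were lower and 3 higher, against the same 13.6% and 15.2%, the latter Myc (2.94), Cdk6 (0.83) and Cdc25a (0.17). The kinase inhibitor gene Cdkn2c fell by 1.04 ± 0.08, and E2f8 and E2f7, repressors of the E2F programme, fell by 0.59 ± 0.05 and 0.82 ± 0.16.

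With high fructose 5 of the 42 other replication genes and 1 of the 54 other mitotic genes were lower and none higher, against 2.55% and 2.37% of all genes. Timeless, whose product protects the replication fork, fell by 0.63 ± 0.07 (adjusted p = 9.37e-06), the lowest value in these lists, and LPS alone had not been called for it (−0.05 ± 0.06, adjusted p = 0.625). Clspn fell by 0.25 ± 0.06, the histone chaperone gene Asf1b by 0.22 ± 0.05, the histone mRNA binding protein gene Slbp by 0.31 ± 0.08 and the centromere gene Cenpk by 0.56 ± 0.14. Among the G1 and E2F regulators Cdc25a fell by 0.23 ± 0.05 and Rbl1 by 0.27 ± 0.06. With high glucose Orc3 fell by 0.28 ± 0.07 (adjusted p = 0.0471) and Mybl2, which encodes the B-MYB of the mitotic gene activator, rose by 0.20 ± 0.04 (adjusted p = 0.0195). No gene of the other mitotic list was called there by edgeR. An unadjusted p below 0.05 was reached by 12 of 54, against 1780 of 12766 of all genes. With high fructose against high glucose, 3 of the 42 other replication genes and 3 of the 54 other mitotic genes were lower and none higher, against 1.88% and 1.84% of all genes, among them Timeless (−0.56 ± 0.07), Clspn (−0.29 ± 0.06), Kif2c (−0.26 ± 0.05) and Spc25 (−0.40 ± 0.08), and Mybl2 differed by −0.22 ± 0.04.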

How the data were processed

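RNA was sequenced from 12 libraries in 4 groups of 3. Per the submitters' processing notes, the deposited read counts per Ensembl gene were made with featureCounts 1.5.0-p3 on mm10. The authors also deposited FPKM, which equal count over gene length and 1 constant per library. Aligner, annotation release and strand setting: not given in the sources used here. Counts were tested with edgeR 4.0.16 (R 4.3.3): filterByExpr, TMM scaling, 1 quasi-likelihood model over all 12 libraries with 8 residual degrees of freedom, 4 comparisons, Benjamini-Hochberg adjustment over 12766 genes, and a call at an adjusted p below 0.05. The script was tested on simulated data. There it called a share of 0.68 of the genes given a log2 change of 0.5 with LPS, and 0.82 of those given 1. Smaller changes were not simulated. Members, classes, lists and naming rule were chosen with earlier results of these data known. Values in every library are given for the 2 genes of each role with the smallest p under LPS, the 8 smallest adjusted p in the sugar comparisons, and 9 genes named whatever their result, and further genes were picked with their values in view. Alternatives were DESeq2 1.42.0, limma 3.58.1 on log2(FPKM + 1) and log2(FPKM + 0.1), upper-quartile or no scaling factors, no filter, the 6 libraries compared, a replicate block, another assignment of 6 genes to classes, and each library left out. Overlap used GENCODE M21, and transcript similarity BLAST 2.17.0+ (98% identity, 75 bases or more). Gene coordinates are those of the count table. 1 listed gene is not reported by name here.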

Additional observations from a re-analysis of the deposited data

Results flagged for a closer look

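Genes whose high-glucose and high-fructose effects differed were singled out by the direct test of high fructose against high glucose (edgeR, adjusted p below 0.05), since both effects are measured against the same control-medium libraries with LPS. There were 13 of 55, all lower with high fructose than with high glucose. The log2 differences were −0.37 for Mcm10, −0.34 for Cdkn1a, −0.28 for Aurkb, −0.26 for Rrm2, −0.24 for Mcm4, −0.23 for Mcm3, −0.22 for Bub1b, −0.22 for Kif23, −0.22 for Bub1, −0.21 for Mcm2, −0.21 for Kif20a, −0.18 for Ccnb1 and −0.17 for Ccna2. Over all genes 3.72% were called in this comparison. For Mcm10 the high-fructose effect was −0.42 and the high-glucose effect −0.05, and for Cdkn1a they were −0.37 and −0.04. Among the mitotic genes they were −0.03 and 0.16 for Ccnb1, −0.05 and 0.17 for Kif23 and −0.06 and 0.17 for Bub1b. They were −0.10 and 0.07 for Ccna2, −0.11 and 0.10 for Kif20a, −0.18 and 0.10 for Aurkb and −0.19 and 0.03 for Bub1. Groups of 3 libraries were not tested for single outlying values.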

How the results depend on the processing

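Under LPS in control medium, 49 of the 55 genes were called, 43 to 47 when 1 library was left out, with 22 to 24 of 27 replication and 17 to 20 of 23 mitotic genes lower, and 39 of the 49 were called in every fit run. The class medians moved to −0.49 and −0.49 with library totals alone. The high-glucose count of 0 became 2 with DESeq2, 2 with no filter and 3 with the replicate number as a block, all higher, and 0 to 1 without 1 library. The high-fructose count of 7 became 11 with DESeq2, 12 with the replicate block and 5 to 7 without 1 library. The count of 13 for high fructose against high glucose became 22 with the replicate block, 4 with only the 6 libraries compared, and 6 to 11 without 1 library, and 4 of the 13 were called in every fit. No called gene changed direction in any fit. Calls over all genes also rose with the replicate block. For high glucose they went from 124 lower and 75 higher to 227 and 164. For high fructose they went from 325 and 302 to 409 and 438, and between the sugars from 240 and 235 to 355 and 380. DESeq2 called 206 and 129 for high glucose and 361 and 331 for high fructose. Replicate numbers recur in all groups. Of 18 same-numbered pairs, 5 had a correlation of deviations over 0.1 (range −0.09 to 0.22), while pairs of unlike number ran from −0.22 to 0.15. Of the 12 libraries, 7 correlated best with their own number. Replicate 1 stood lowest in every group for 5 of the 55 genes and highest for 6, against 5.28% and 3.34% of all genes. No label ties the numbers to a culture or day, so the libraries are not treated as paired, and the cause of the changed counts was not tested. Depth limits Ccnd2, at 1.23 to 3.91 CPM, to which DESeq2 gave no adjusted p for high glucose.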

Other observations

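The p53 and checkpoint list went both ways with LPS. Of its 22 genes 6 were higher and 8 lower, where 15.2% and 13.6% of all genes were. Plk2, a stress-induced kinase, rose by 1.16 ± 0.04, Mdm2, the p53 ubiquitin ligase and itself a p53 target, by 0.90 ± 0.05, Gadd45a by 1.18 ± 0.29 and Btg2, an antiproliferative factor, by 0.67 ± 0.18. In the other direction Trp53inp1 fell by 1.19 ± 0.16, Sesn1 by 0.83 ± 0.11, the checkpoint kinase gene Chek2 by 0.72 ± 0.09 and Zmat3 by 0.58 ± 0.06. With high fructose Mdm2 rose by 0.19 ± 0.04 (adjusted p = 0.0141) while Cdkn1a, another p53 target, fell by 0.37 ± 0.05. No other gene of the list was called by edgeR with high fructose. An unadjusted p below 0.05 was reached by 7 of 22, against 1984 of 12766 of all genes. With high fructose against high glucose 2 of the 22 were lower and none higher, against 1.88% and 1.84% of all genes.

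Fold changes were set beside the promoter letters as a description, without a test. Of the 12 genes with an E2F-type site 10 were replication genes, and of the 18 with a CHR 14 were mitotic. A difference by either motif therefore cannot be told apart from a difference between the classes. With LPS, the median was −0.37 in the 12 genes with an E2F-type site and −0.41 in the 31 without, and −0.42 in the 18 genes with a CHR and −0.36 in the 25 without. It was −0.41 in the 33 genes with CCAAT and −0.29 in the 10 without. With high fructose the medians were −0.14 and −0.08 for the E2F-type site, −0.06 and −0.13 for the CHR, and −0.10 and −0.18 for CCAAT. With high glucose they were, in the same order, 0.00 and 0.05, 0.07 and 0.01, and 0.05 and −0.01.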
